A study of Homo sapiens with 29 samples.

Results

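The question here was where 2 human lymphoma lines, DHL4 and DHL6, differed in their first measured transcriptional response to R406, a small molecule that blocks the kinase SYK. The series measured RNA of both lines on Affymetrix human gene expression arrays after R406 at 1 µM for 2, 6, 24 or 48 h and in the solvent DMSO, in 10 groups and 29 arrays. The comparison uses 11 of these 29 arrays: DHL4 in DMSO (2 arrays), DHL4 after 2 h of R406 (3 arrays), DHL6 in DMSO (3 arrays) and DHL6 after 2 h of R406 (3 arrays). All 12165 genes with a probe set of a single symbol were kept, and none was chosen by its values. Both are lines of diffuse large B-cell lymphoma, a mature B-cell cancer, each stands for 1 tumour, and no genotype or other agent is named in the labels. The labels give the DMSO arrays no time in culture, so 2 h of R406 and 2 h of culture cannot be told apart. The labels do not state whether replicate arrays hold separate cultures, so the p-values reflect spread that may be only technical.

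The B-cell receptor signals through SYK, which feeds PI3K and AKT, phospholipase C and calcium, the RAS and ERK pathway and NF-kB. AKT keeps FOXO transcription factors out of the nucleus, ERK drives immediate early genes such as IER2, and NF-kB induces its own inhibitors such as NFKBIA. Lymphoma lines can depend on different branches of this network.

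Values are RMA levels, a log2 measure of probe set brightness. A line's response is its mean level after 2 h of R406 minus its mean in DMSO, and the line difference is the DHL6 response minus the DHL4 response, given on the log2 scale ± SE from a limma model of all 29 arrays. A positive line difference means that the gene ended higher relative to DMSO in DHL6 than in DHL4, whether by a larger rise or a smaller fall. A gene was called at a Benjamini-Hochberg adjusted p below 0.05 over all 12165 genes, and "rose" and "fell" are used of a line only where its own response was called. RMA levels have a floor: a gene below about 4 is near it, cannot show much of a fall, and has its changes understated. Each array measures a whole culture, so fewer cells carrying a transcript and less of it per cell cannot be told apart.

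Of 6 measured B-cell markers, 5 were at 5 or more in all 4 groups, and the other, PAX5, was near the floor at 2.74 to 2.88. In the same groups 8 of 8 T-cell and 6 of 6 monocyte and macrophage markers were below 4, as were 6 of 7 fibroblast and endothelial markers. The exception among the last was DCN, a matrix proteoglycan, at 8.43 in DHL4 DMSO and 8.39 after R406. One array stood apart: replicate 3 of DHL4 after R406 had an upper quartile of 4.84, against 5.07 to 5.35 on the other 10, the highest bioB and bioC hybridisation control level (8.91) and the lowest array weight (0.35). Each line difference named below that lost its call without this array is marked as such. The 3′ minus 5′ difference of the ACTB control probe sets, a sign of RNA quality, ran from 1.60 to 2.02 in DHL6 after R406 and from 1.31 to 1.57 on the other 8 arrays, and its part in the results was not tested.

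The line difference was called for 214 genes, 1.76% of those tested: 149 with a higher DHL6 response (1.22%) and 65 with a lower one (0.534%). A difference of at least 2-fold was called for 145 genes (1.19%). For scale, 1153 genes (9.48%) responded in DHL4, 325 up (2.67%) and 828 down (6.81%), and 644 (5.29%) in DHL6, 260 up (2.14%) and 384 down (3.16%). Of 348 genes called in both lines, 11 moved in opposite directions. The difference was called for all 11, but it adds up their opposite called responses, so this is no separate support. Among the 3627 genes at 5 or more in DMSO of both lines, 113 were called for the difference (3.12%), against 101 of the 8538 others (1.18%). Compared over genes, which do not count as independent replicates, the responses of the lines came from separate arrays and had a Pearson r of 0.50 over all 12165 and of 0.67 over those 3627. Without replicate 3 of DHL4 after R406, 171 genes were called, 110 higher and 61 lower, and 156 of the 214 were among them. Fewer genes than 214 were also called without replicate 1 or without replicate 2 of DHL4 DMSO. Each of these fits leaves that group with 1 array, and the cause of the drop was not tested. The split of higher to lower depended on scaling: after quantile normalization of the deposited columns it was 124 to 94, so 56.9% of calls were higher instead of 69.6%. Over the 3627 genes the median line difference was 0.10, and 0.01 after quantile normalization.

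**Figure D1:**
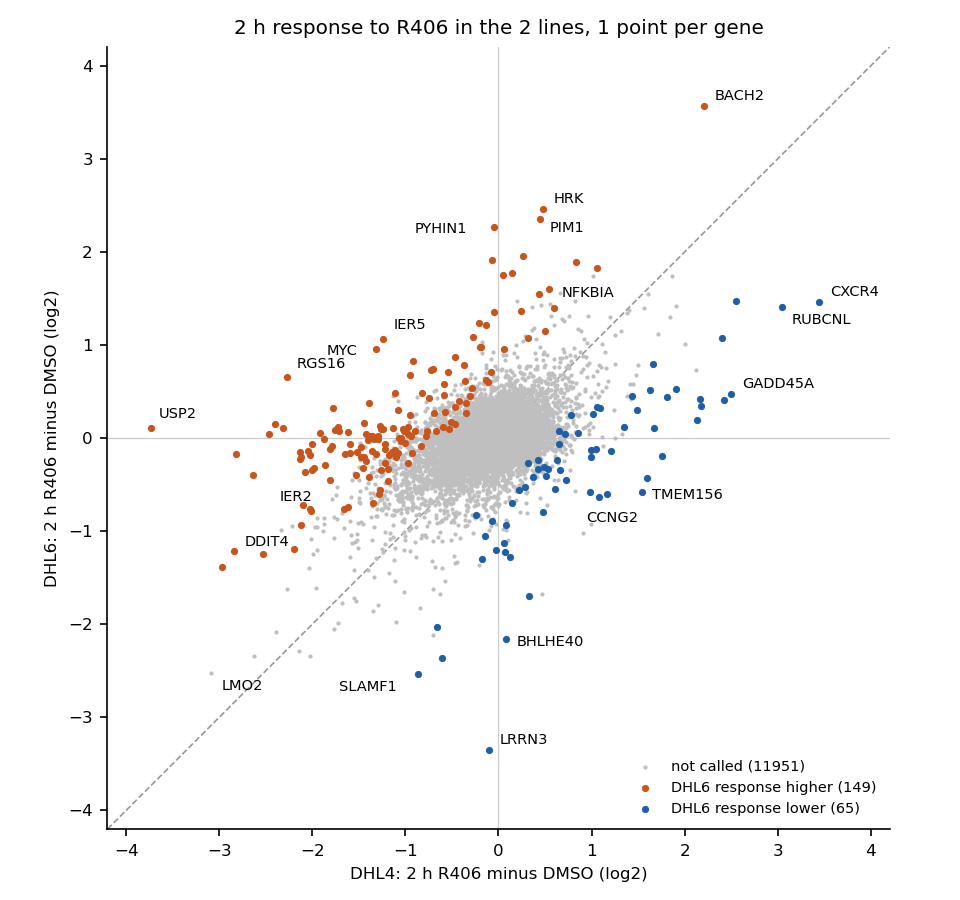
Response of each of 12165 genes after 2 h of R406 (R406 minus DMSO, log2) in DHL4 on the horizontal axis and in DHL6 on the vertical axis. Coloured points are the 149 genes with a higher and the 65 with a lower DHL6 response, and the dashed line marks equal responses. USP2 and MYC lie to the upper left of that line and LRRN3 and CXCR4 to the lower right.

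Sorted by which line's own response was called, the largest group among the 214 genes was a fall called in DHL4 and not in DHL6 (90 genes, with medians of -1.34 in DHL4 and -0.01 in DHL6). A rise called in DHL4 and not in DHL6 accounted for 37 genes, a rise called in DHL6 and not in DHL4 for 25, and a fall called in DHL6 and not in DHL4 for 18. Both lines fell for 16 genes, 15 of them further in DHL4. Both rose for 11 genes, 5 further in DHL4 and 6 further in DHL6. The lines moved in opposite directions for 11 genes, and 6 had no called response in either line. A fall needs a level to fall from: of the 108 genes that fell in 1 line, the other line was below 4 in DMSO for 59 (54.6%), with 44 of them below 3.5. For those 59 genes the room for a fall in the other line was limited. Over all genes, 58.5% in DHL4 and 58.6% in DHL6 were below 4 in DMSO, so the share of 54.6% is no higher than that.

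**Figure D2:**
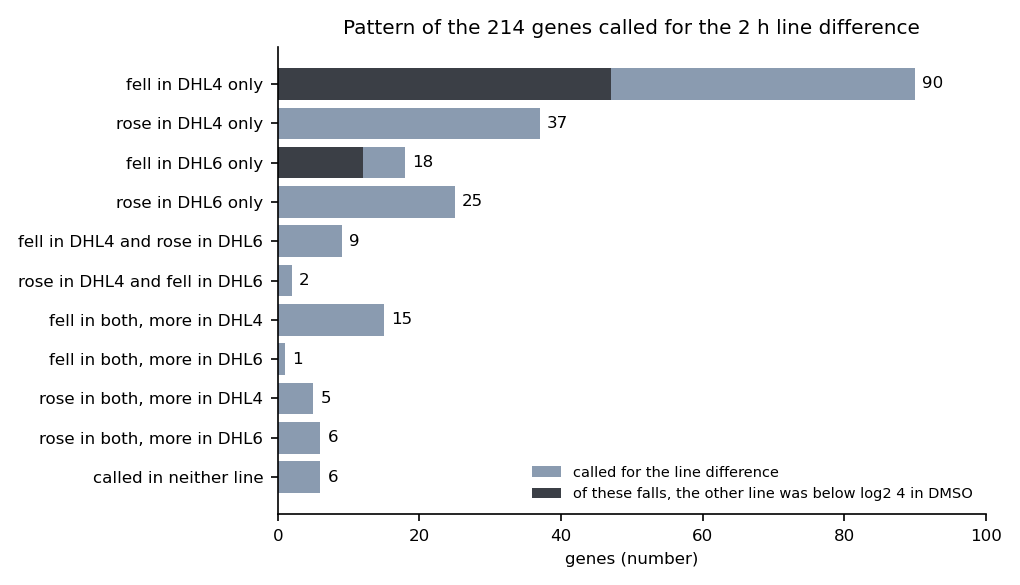
Number of genes called for the line difference in each pattern of the lines' own calls. The dark part of the bars for falls in 1 line marks genes whose level in the other line was below 4 in DMSO: 47 of 90 and 12 of 18. Over all genes, 58.6% in DHL6 and 58.5% in DHL4 were below 4 in DMSO.

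Opposite movement does not depend on one line being silent. MYC, the transcription factor that drives ribosome synthesis and growth, had the smallest adjusted p of this pattern. MYC levels in DHL4 were 9.98 and 10.00 in DMSO and 8.68, 8.75 and 8.60 after R406. The DHL6 arrays gave 9.35, 9.33 and 9.28 in DMSO and 10.27, 10.32 and 10.25 after R406. The groups were apart in both lines, with DHL4 dropping below and DHL6 climbing above every DMSO array. MYC thus fell in DHL4 (-1.31 ± 0.08, 2.49-fold) and rose in DHL6 (0.96 ± 0.07, 1.94-fold), a line difference of 2.27 ± 0.11 (limma adjusted p = 1.36e-12).

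IER5, an immediate early gene of the heat shock and growth response, followed the same course. The DHL4 arrays gave 5.68 and 5.43 for IER5 in DMSO and 4.32, 4.54 and 4.08 after R406. For DHL6 the values were 6.68, 6.54 and 6.32 in DMSO and 7.40, 7.57 and 7.76 after R406. Again no array of R406 overlapped its DMSO group. IER5 differed by 2.30 ± 0.28 (limma adjusted p = 1.45e-05), from -1.24 in DHL4 and 1.06 in DHL6. RGS16, which shortens signals of G-protein-coupled receptors, had the widest opposite swing. RGS16 stood at 5.65 and 5.45 in DHL4 DMSO and at 3.23, 3.49 and 3.10 after R406. Its DHL6 levels were 4.51, 4.22 and 4.52 in DMSO and 4.91, 5.19 and 5.13 after R406. The DHL4 arrays ended near the floor while those of DHL6 rose by 0.66 ± 0.19, for a line difference of 2.94 ± 0.29 (limma adjusted p = 5.54e-07). Its other probe set, at a mean level of 3.65, gave 1.80 and was called too.

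ID2, an inhibitor of helix-loop-helix transcription factors, was less even between arrays. DHL4 gave 5.82 and 5.38 in DMSO and 4.85, 5.39 and 3.83 after R406 for ID2. DHL6 gave 5.97, 6.17 and 6.07 in DMSO and 6.90, 6.82 and 6.98 after R406. In DHL4 the groups overlapped (5.39 after R406 against 5.38 in DMSO), and in DHL6 they did not. Both responses of ID2 were called narrowly, with limma adjusted p of 0.0337 in DHL4 and 0.049 in DHL6. Its DHL4 fall leans on replicate 3 after R406 (3.83), the array that stood apart. The line difference of 1.74 ± 0.37 (limma adjusted p = 0.00961) moved to 1.31 without replicate 3 of DHL4 after R406, stayed called there, and lost its call without replicate 1 of DHL4 DMSO. CD83, an activation marker of B cells, began far higher in DHL6. In DHL4, CD83 read 7.29 and 7.30 in DMSO and 6.88, 6.47 and 6.91 after R406. In DHL6 it read 10.50, 10.47 and 10.32 in DMSO and 11.07, 11.13 and 11.21 after R406. It fell by 0.54 in DHL4 and rose by 0.71 in DHL6, a difference of 1.25 ± 0.18 (limma adjusted p = 0.000113).

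The other genes that fell in DHL4 and rose in DHL6 were JADE2 (1.46), MBP (1.45), SOBP (1.31) and RFX5, a regulator of MHC class II promoters (0.80). JADE2 lay near the floor, between 3.08 and 4.71. Replicate 3 of DHL4 after R406 was the lowest DHL4 array for JADE2 (3.08) and MBP (5.51), so their DHL4 falls lean on it in part. The other probe set of JADE2, the 3 of MBP and the 1 of RFX5 were not called. The RFX5 one was well measured, at a mean of 6.38, with a difference of 0.55 (limma adjusted p = 0.287).

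The reverse pattern held for CCNG2 and RGCC. CCNG2, a cyclin linked to growth arrest and a FOXO target, was measured well above the floor in both lines. CCNG2 levels in DHL4 were 7.33 and 7.08 in DMSO and 8.31, 8.33 and 8.20 after R406. The DHL6 arrays gave 6.58, 6.56 and 6.30 in DMSO and 5.87, 5.83 and 5.84 after R406. All R406 arrays lay above DMSO in DHL4 and below it in DHL6. The line difference was -1.71 ± 0.20 (limma adjusted p = 9.72e-06), and its other probe sets gave -1.71 and -1.94, both called. RGCC, a regulator of the cell cycle, read 8.93 and 8.89 in DHL4 DMSO and 9.51, 9.59 and 9.44 after R406. DHL6 went from 7.46, 7.59 and 7.55 to 7.0, 6.82 and 7.14, so the groups were apart in both lines. Its difference was -1.15 ± 0.22 (limma adjusted p = 0.00336).

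The promoter of CCNG2 is shown because, of the opposite genes, CCNG2 and MBP held a searched motif in the 250 bases before their first listed start, and CCNG2 is the one with several probe sets called. Its motif is the E-box CACGTG, which MYC and related factors can bind and which reads the same on both strands; MBP held a forkhead motif. The sequence is from RefSeq (GRCh38.p14, chr4:77156957-77157206, + strand), 5′ to 3′, with the motif in capitals.
CCNG2: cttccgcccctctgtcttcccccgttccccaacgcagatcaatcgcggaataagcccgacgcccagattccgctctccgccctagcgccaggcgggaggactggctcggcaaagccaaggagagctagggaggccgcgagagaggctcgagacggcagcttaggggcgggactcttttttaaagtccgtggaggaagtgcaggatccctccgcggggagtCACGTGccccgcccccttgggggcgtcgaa
An E-box was in 805 of 9711 promoters of measured genes (8.29%), in 12 of 119 with a higher DHL6 response (10.1%) and in 3 of 55 with a lower one (5.45%). The match describes the sequence and does not show a site in use. The forkhead motif GTAAACA was in 207 of the 9711 (2.13%), in 3 of the 119 and in 1 of the 55, searched on both strands.

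**Figure D3:**
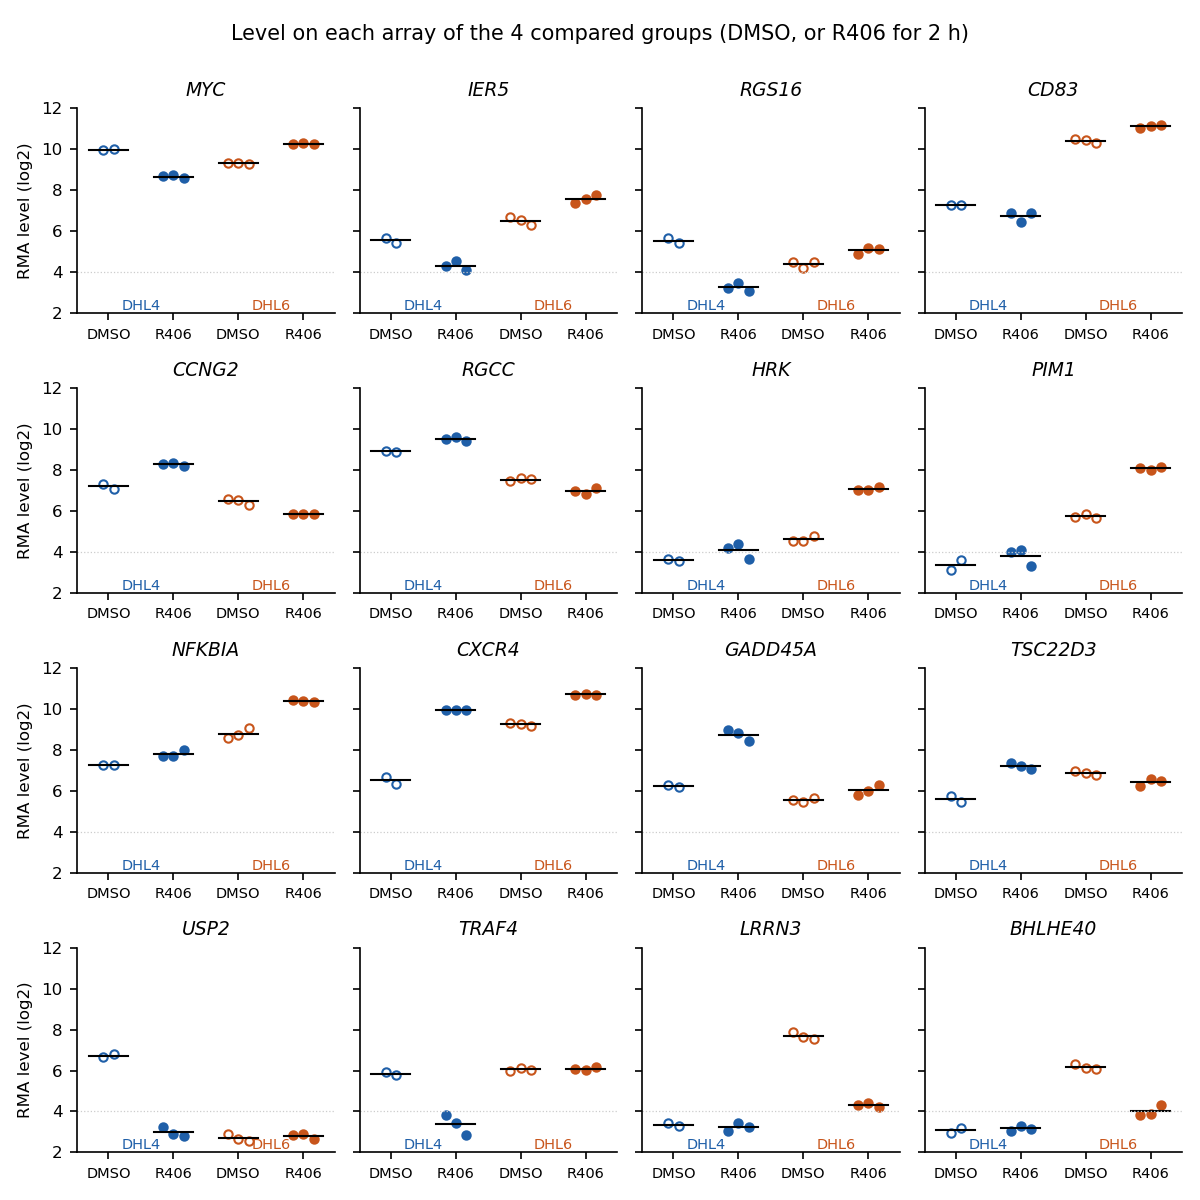
RMA level (log2) on each of the 11 arrays for 16 genes, with DHL4 in blue, DHL6 in orange, open circles for DMSO, filled circles for R406 and black bars for group means. The dotted line marks 4, near the floor. MYC, IER5, RGS16 and CD83 go down in DHL4 and up in DHL6, CCNG2 and RGCC the reverse, and USP2 is at the floor in DHL6 from the start.

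The largest positive line difference was that of USP2, a deubiquitinating enzyme. The DHL4 arrays gave 6.64 and 6.79 for USP2 in DMSO and 3.25, 2.89 and 2.79 after R406. For DHL6 the values were 2.89, 2.67 and 2.55 in DMSO and 2.86, 2.90 and 2.66 after R406. USP2 fell 13.3-fold in DHL4 and had no level to lose in DHL6, where all 6 arrays were below 3. USP2 thus differed by 3.84 ± 0.28 (limma adjusted p = 5.09e-09), while its other probe set, at a mean of 2.65, was not called. BCAR3, an adaptor of integrin signalling, THY1, a surface glycoprotein, and CKAP4, a membrane protein of the endoplasmic reticulum, had the same form. Their DHL4 levels in DMSO averaged 5.95, 6.05 and 6.79, against 3.06, 2.80 and 3.30 in DHL6. Their line differences were 2.64 ± 0.24, 2.43 ± 0.22 and 2.55 ± 0.31, with limma adjusted p of 2.02e-07, 2.02e-07 and 1.47e-05. FCGR2B, an inhibitory Fc receptor of B cells, was also near the floor in DHL6 (1.80 ± 0.20, limma adjusted p = 5.46e-06).

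TRAF4, a member of the TRAF adaptor family, differed from those genes because both lines began alike. TRAF4 stood at 5.91 and 5.78 in DHL4 DMSO and at 3.83, 3.44 and 2.86 after R406. Its DHL6 levels were 5.99, 6.13 and 6.04 in DMSO and 6.06, 6.04 and 6.17 after R406. DHL4 lost the transcript nearly to the floor while the 6 DHL6 arrays stayed between 5.99 and 6.17. The difference was 2.51 ± 0.30 (limma adjusted p = 1.47e-05), and 2.25 without replicate 3 of DHL4 after R406. Its other probe set fell in DHL4 (-1.32) with a difference of 1.19 that was not called (limma adjusted p = 0.152). PUS7, an RNA pseudouridine synthase, also began at the same level. DHL4 gave 7.19 and 7.01 in DMSO and 5.67, 5.08 and 4.32 after R406 for PUS7. DHL6 gave 7.23, 7.19 and 6.91 in DMSO and 6.79, 6.50 and 6.95 after R406. The DHL4 groups were apart and the DHL6 groups overlapped. PUS7 differed by 1.71 ± 0.34 (limma adjusted p = 0.00568), by 1.36 without replicate 3 of DHL4 after R406, and not by a called amount without replicate 1 of DHL4 DMSO. PTCH1, the Hedgehog receptor, differed by 1.77 ± 0.26 (limma adjusted p = 0.000206), and its other 2 probe sets, both near the floor, were not called. For TNS3, ZMIZ1 and ASB13, also among the 12 largest, the difference (2.10, 2.24 and 1.98) came with wide spread between arrays. ZMIZ1, a transcriptional coregulator, was at 5.04 on replicate 3 of DHL6 DMSO against 3.12 and 3.18, and lost its call without any 1 of 6 arrays, replicate 3 of DHL4 after R406 among them. ASB13 lost its call without any 1 of 8 arrays, that one included.

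The largest negative difference was that of LRRN3, a leucine-rich repeat membrane protein, which fell in DHL6. In DHL4, LRRN3 read 3.42 and 3.28 in DMSO and 3.06, 3.42 and 3.25 after R406. In DHL6 it read 7.88, 7.63 and 7.53 in DMSO and 4.34, 4.41 and 4.24 after R406. DHL4 was near the floor on all 5 arrays, and DHL6 fell 10.2-fold. LRRN3 differed by -3.25 ± 0.34 (limma adjusted p = 1.52e-06), and the second probe set gave -2.85 and was called. BHLHE40, a transcriptional repressor tied to the clock and to activation, fell in the same way, by 2.16 ± 0.20 in DHL6. BHLHE40 levels in DHL4 were 2.96 and 3.21 in DMSO and 3.05, 3.31 and 3.16 after R406. The DHL6 arrays gave 6.30, 6.13 and 6.08 in DMSO and 3.85, 3.86 and 4.31 after R406. It too had no level to lose in DHL4, and its difference was -2.25 ± 0.30 (limma adjusted p = 6.04e-05). The other BHLHE40 probe set, at a mean of 2.68, was not called. EMP3, a membrane protein, read 5.95, 5.34 and 6.29 in DHL6 DMSO and 3.66, 4.67 and 4.15 after R406. In DHL4 it read 4.92 and 4.47 and 4.85, 4.66 and 5.56, so only the DHL6 groups were apart. The difference of -2.03 ± 0.43 (limma adjusted p = 0.00961) lost its call without replicate 2 of DHL4 DMSO. SLAMF1, a signalling receptor of lymphocytes, fell in both lines and further in DHL6 (-2.54 against -0.87), but DHL4 began at 3.86 and could fall little.

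Of the 65 lower DHL6 responses, 37 were rises called in DHL4 and not in DHL6, and 5 were rises in both lines that were larger in DHL4. CXCR4, the chemokine receptor that holds B cells in the dark zone and marrow, rose in both lines. The DHL4 arrays gave 6.69 and 6.32 for CXCR4 in DMSO and 9.96, 9.96 and 9.93 after R406. For DHL6 the values were 9.32, 9.24 and 9.18 in DMSO and 10.70, 10.73 and 10.68 after R406. The R406 arrays were above DMSO in each line, and the lines ended closer together than they began. The rise was 10.9-fold in DHL4 and 2.75-fold in DHL6, a line difference of -1.99 ± 0.18 (limma adjusted p = 2.02e-07), and both other probe sets were called at -2.18 and -2.51. RUBCNL, an autophagy regulator, also rose in both, by 3.04 ± 0.13 in DHL4 and 1.41 ± 0.11 in DHL6. Its line difference was -1.63 ± 0.17 (limma adjusted p = 1.52e-06), and the other probe set gave -1.36, called. KANK2, an actin regulator, rose by 2.55 and 1.48, with a difference of -1.07 ± 0.21 (limma adjusted p = 0.00546), and its other probe set, near the floor, was not called.

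GADD45A, a stress sensor of growth arrest and a target of both FOXO and p53, rose 5.67-fold in DHL4. GADD45A stood at 6.27 and 6.19 in DHL4 DMSO and at 8.95, 8.80 and 8.44 after R406. Its DHL6 levels were 5.56, 5.46 and 5.63 in DMSO and 5.80, 5.99 and 6.28 after R406. In DHL6 the R406 arrays also lay above DMSO, but that response was not called (0.47, limma adjusted p = 0.376). Between lines GADD45A differed by -2.03 ± 0.35 (limma adjusted p = 0.00122). TSC22D3, the glucocorticoid-induced leucine zipper and a FOXO-linked gene, read 5.76 and 5.47 in DHL4 DMSO and 7.34, 7.23 and 7.08 after R406. In DHL6 it read 6.99, 6.85 and 6.77 and then 6.25, 6.57 and 6.49, so the arrays moved up in DHL4 and down in DHL6, where the response was not called (limma adjusted p = 0.233). The difference was -2.03 ± 0.27 (limma adjusted p = 4.96e-05), and the other probe set, at a mean of 3.12, was not called. TMEM156, a membrane protein, rose by 1.54 in DHL4, with a line difference of -2.12 ± 0.30 (limma adjusted p = 0.000107).

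RGS1 and RGS2, which like RGS16 quench G-protein signals, had differences opposite in sign to RGS16. RGS1 rose from a mean of 3.06 to 5.49 in DHL4 and stood at 6.75 and 7.16 in DHL6, a line difference of -2.01 ± 0.31 (limma adjusted p = 0.000254). Its other probe sets gave -0.56 and -0.08 and were not called, though the first rose in DHL4 by 0.96. RGS2 differed by -1.56 ± 0.35 (limma adjusted p = 0.0146) and lost its call without replicate 2 of DHL4 DMSO. EIF2AK3, the stress kinase PERK, rose by 2.16 in DHL4, with a difference of -1.74 ± 0.30 (limma adjusted p = 0.00107). PCDH9, a cell adhesion protein, differed by -1.83 ± 0.25 (limma adjusted p = 6.04e-05), while none of its other 3 probe sets was called. IL16, a chemoattractant of CD4 cells, OAS1, an interferon-induced enzyme, and SPTBN1, a spectrin, rose in DHL4 from levels below 4, with differences of -1.94, -1.95 and -1.76. IL16 lost its call without replicate 2 of DHL4 DMSO, SPTBN1 without replicate 1 of it and OAS1 without either, and none of their other probe sets was called.

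Rises larger in DHL6 included death and survival genes side by side. HRK, a BH3-only protein that promotes apoptosis, was called in DHL6 and not in DHL4 at 2 h. DHL4 gave 3.66 and 3.54 in DMSO and 4.19, 4.40 and 3.66 after R406 for HRK. DHL6 gave 4.53, 4.55 and 4.78 in DMSO and 7.04, 7.04 and 7.15 after R406. All DHL6 arrays moved far above DMSO, and in DHL4 the third array was level with one DMSO array at 3.66. The DHL4 DMSO arrays of HRK were below 4, near the floor, so the size of its rise in DHL4 may be understated. The response was 2.46 ± 0.23 in DHL6 and 0.48 ± 0.25 in DHL4 (limma adjusted p = 0.284), and the line difference 1.98 ± 0.34 (limma adjusted p = 0.00122). It was 1.77 without replicate 3 of DHL4 after R406, and still called. The other 2 HRK probe sets, at means of 2.62 and 3.11, were not called. PMAIP1, or NOXA, a second BH3-only protein, rose in both lines, by 0.59 in DHL4 and 1.40 in DHL6. Its difference of 0.80 ± 0.18 (limma adjusted p = 0.0183) lost its call without replicate 1 of DHL4 DMSO, replicate 3 of DHL6 DMSO or replicate 1 of DHL6 after R406. The other PMAIP1 probe set, at a mean of 6.81, gave 0.58 and was not called (limma adjusted p = 0.150).

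PIM1, a survival kinase induced by NF-kB and STAT factors, had the largest difference among NF-kB targets. In DHL4, PIM1 read 3.14 and 3.59 in DMSO and 3.99, 4.09 and 3.33 after R406. In DHL6 it read 5.71, 5.84 and 5.66 in DMSO and 8.10, 8.02 and 8.15 after R406. DHL6 rose 5.09-fold with groups well apart, while the DHL4 groups overlapped near the floor. The line difference was 1.91 ± 0.27 (limma adjusted p = 0.000107). NFKBIA, the inhibitor that retains NF-kB in the cytoplasm and is itself its target, rose in both lines. NFKBIA levels in DHL4 were 7.29 and 7.24 in DMSO and 7.71, 7.69 and 8.01 after R406. The DHL6 arrays gave 8.60, 8.72 and 9.05 in DMSO and 10.43, 10.40 and 10.35 after R406. The rise was 1.46-fold in DHL4 and 3.04-fold in DHL6, a difference of 1.06 ± 0.16 (limma adjusted p = 0.000291). PIM2, the related kinase, rose by 0.83 and 1.89, with a difference of 1.06 ± 0.20 (limma adjusted p = 0.00372) that lost its call without replicate 2 of DHL4 DMSO.

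The NFKBIA promoter, chosen after its values were seen, is shown as a well-known NF-kB target with the kB motif GGGAATTTC on the reverse strand of these 250 bases before its start (RefSeq, GRCh38.p14, chr14:35404750-35404999, − strand). It is printed 5′ to 3′ on the gene's strand, with the motif's reverse complement in capitals.
NFKBIA: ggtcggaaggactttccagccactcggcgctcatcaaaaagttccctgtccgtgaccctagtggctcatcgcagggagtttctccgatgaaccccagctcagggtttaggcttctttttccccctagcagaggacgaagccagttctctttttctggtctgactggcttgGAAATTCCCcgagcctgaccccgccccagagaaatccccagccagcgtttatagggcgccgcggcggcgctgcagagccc
This kB motif, searched on both strands, was in 36 of the 9711 promoters (0.371%), in 1 of the 119 with a higher DHL6 response, which is that of NFKBIA, and in 0 of the 55 with a lower one.

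PYHIN1, an interferon-inducible nuclear protein, rose in DHL6 by 2.27 ± 0.17 from a mean of 4.02, with DHL4 between 2.86 and 3.10 on all 5 arrays and a difference of 2.32 ± 0.25 (limma adjusted p = 2.35e-06). BACH2, a repressor that restrains plasma cell differentiation, had the largest rise of any gene in DHL6. The DHL4 arrays gave 7.34 and 7.17 for BACH2 in DMSO and 9.38, 9.47 and 9.53 after R406. For DHL6 the values were 5.67, 4.91 and 5.22 in DMSO and 8.96, 8.91 and 8.63 after R406. The rise was 4.62-fold in DHL4 and 11.8-fold in DHL6, and the line difference 1.36 ± 0.22 (limma adjusted p = 0.000553). Its other probe set, at a mean of 6.10, also rose in both lines, by 1.99 and 1.67, but its line difference of -0.32 was not called (limma adjusted p = 0.756), so the 2 probe sets disagree on whether the lines differ.

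Gene lists are described by the number of called members and the median line difference, beside 1.76% called and a median of 0.02 over all genes. Over the 3627 genes at 5 or more in DMSO of both lines, 3.12% were called and the median was 0.10. Medians of members at that level are to be read beside the latter. Counts of 0 or 1 called in a short list are not results about the list. Among B-cell receptor signalling components 1 of 22 was called: RASGRP3, an activator of RAS (0.62 ± 0.15, limma adjusted p = 0.026), which lost its call without any 1 of 7 arrays, replicate 3 of DHL4 after R406 among them. FCGR2B was the 1 called of 17 inhibitory co-receptors and phosphatases. In the list of PI3K and AKT components 0 of 17 were called, but that list does not hold every such gene. PIK3C2B, a PI3K gene outside it, was called for the line difference, with its DHL4 groups apart and its DHL6 groups overlapping.

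Of 22 NF-kB subunits and targets, 5 were called with a higher DHL6 response and 1 with a lower one. PIM1, PIM2 and NFKBIA rose in DHL6, as did NFKB2, a precursor of the alternative pathway (1.09). NFKBIE, another inhibitor, fell in DHL4 (-1.27; difference 1.36, not called without replicate 2 of DHL4 DMSO), and BCL2A1, a survival protein, fell in DHL6 (-1.22). The line differences of NFKB2 (1.37) and BCL2A1 (-1.29) lost their calls without any 1 of 8 and 9 arrays, and that of NFKB2 was 1.31 without replicate 3 of DHL4 after R406 (limma adjusted p = 0.0966). The list's median difference was 0.10, and -0.03 over its 6 members at 5 or more in DMSO of both lines.

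Of 22 immediate early genes, 5 were higher and 1 lower, and the median was -0.01 over all 22 and 1.05 over the 8 at 5 or more in DMSO of both lines. IER2 fell in both lines, with responses of -1.81 ± 0.12 in DHL4 and -0.45 ± 0.11 in DHL6, a difference of 1.36 ± 0.17 (limma adjusted p = 1.75e-05). SRF, the serum response factor, fell in DHL4 (-1.39), with a difference of 0.97 that lost its call without any 1 of 9 arrays. JUNB (0.74) and EGR3 (-0.86) were below 4 on all 11 arrays, and both lost the call without replicate 3 of DHL4 after R406. Of 17 ERK feedback genes, 3 were higher, among them RGS16 and the ERK phosphatase DUSP2 (1.53 ± 0.36, limma adjusted p = 0.021), and 2 lower, RGS1 and RGS2. DUSP2 fell in DHL4 by 1.60 and lost the call without any 1 of 7 arrays, replicate 3 of DHL4 after R406 among them (limma adjusted p = 0.0641).

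Of 28 members of the FOXO target list, GADD45A and CCNG2 were called with lower DHL6 responses, GADD45B and BCL6 with higher ones. TSC22D3 (-2.03), named above as FOXO-linked, is not among the called members of this list. The list's median difference was 0.0 over all 28 and 0.54 over the 7 at 5 or more in DMSO of both lines. GADD45B, a stress gene also driven by NF-kB, rose in DHL6 (0.78), with a difference of 1.15 ± 0.22 (limma adjusted p = 0.00321); none of its other 3 probe sets was called. BCL6, the repressor that defines germinal centre B cells, fell in DHL4 by 1.08 ± 0.14 and read -0.16 in DHL6. Its difference was 0.92 ± 0.18 (limma adjusted p = 0.00563), and its other probe set gave 1.53, called. Of 23 lymphocyte homing genes and G-protein regulators, 2 were higher and 4 lower, with CXCR4, RGS1 and RGS2 among the latter.

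The ATF4 and amino acid stress list had a median difference of 0.53 (0.49 after quantile normalization and 0.44 without replicate 3 of DHL4 after R406), with 6 of 28 called, all higher in DHL6. ATF4 is the transcription factor of the amino acid and unfolded protein stress response. In DHL6, 9 members rose and 1 fell, and in DHL4, 0 rose and 2 fell. CTH, which makes cysteine, rose in DHL6. CTH stood at 4.62 and 4.51 in DHL4 DMSO and at 4.86, 4.84 and 4.79 after R406. Its DHL6 levels were 5.23, 5.02 and 5.21 in DMSO and 7.01, 7.04 and 7.29 after R406. The DHL6 groups were far apart, the DHL4 groups only just, and the difference was 1.70 ± 0.31 (limma adjusted p = 0.00235), with the other probe set at 2.01, called. CHAC1, which breaks down glutathione, read 3.04, 3.07 and 3.52 in DHL6 DMSO and 5.04, 5.38 and 4.52 after R406, and between 2.78 and 3.18 in DHL4. Its difference was 1.63 ± 0.33 (limma adjusted p = 0.00563), lost without replicate 1 of DHL4 DMSO.

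The other called members did not all rise in DHL6. DDIT4, an inhibitor of mTORC1, fell in both lines, 7.15-fold in DHL4 and 2.31-fold in DHL6, so its difference of 1.63 ± 0.24 (limma adjusted p = 0.000201) is a smaller fall. TRIB3, a pseudokinase that restrains AKT and ATF4, fell in DHL4 (-1.52) and read -0.15 in DHL6. SLC7A5, the large neutral amino acid transporter, had no called response in either line (-0.58 and 0.46) but a called difference of 1.04 ± 0.25 (limma adjusted p = 0.0261). TRIB3 lost its call without replicate 1 of DHL4 DMSO, and SLC7A5 without any 1 of 6 arrays.

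The CHAC1 promoter, also chosen after its values were seen, is shown because its 250 bases before the gene start held the C/EBP-ATF composite motif TGATGCAA, to which ATF4 binds with C/EBP partners, on the reverse strand (RefSeq, GRCh38.p14, chr15:40953221-40953470, + strand). The capitals mark the motif's reverse complement.
CHAC1: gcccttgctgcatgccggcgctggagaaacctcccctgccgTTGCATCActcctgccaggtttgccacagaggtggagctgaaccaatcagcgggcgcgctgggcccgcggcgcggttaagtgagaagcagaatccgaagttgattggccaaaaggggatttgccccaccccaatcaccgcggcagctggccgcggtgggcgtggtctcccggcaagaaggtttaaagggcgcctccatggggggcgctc
That motif, on both strands, was in 58 of the 9711 promoters (0.597%), in 1 of the 119 with a higher DHL6 response, that of CHAC1, and in 2 of the 55 with a lower one.

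The death-promoting BCL2 family had a median difference of 0.52 over 12 measured genes, with HRK and PMAIP1 called. All 12 differences were positive, against 6491 of 12165 over all genes. Only 4 of the 12 were at 5 or more in DMSO of both lines, with a median difference of 0.49. The median response of all 12 was -0.21 in DHL4 and 0.15 in DHL6. Of 6 survival BCL2 members BCL2A1 was the 1 called. The lists with the lowest medians in DHL4 had less negative medians in DHL6. Choosing lists by their DHL4 response favours that order, so no conclusion is drawn from it. Over the 3627 genes at 5 or more in DMSO of both lines, the median response was -0.13 in DHL4 and -0.03 in DHL6. MYC targets and ribosome synthesis genes had a median response of -0.81 in DHL4, where 20 of 33 fell, and of -0.35 in DHL6, where 6 fell. Their median line difference was 0.42 (0.34 after quantile normalization and 0.29 without replicate 3 of DHL4 after R406). Only RRS1, a ribosome assembly factor, was called among them (1.14 ± 0.22, limma adjusted p = 0.00426), and it lost the call without replicate 1 of DHL4 DMSO.

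Cholesterol synthesis and uptake genes fell in both lines, 12 of 18 in DHL4 (median -0.91) and 10 of 18 in DHL6 (median -0.55). Of these 18, SQLE and MSMO1, enzymes of the late pathway, were called for the difference. SQLE read 9.38 and 9.28 in DHL4 DMSO and 7.72, 7.90 and 7.55 after R406. DHL6 went from 10.43, 10.38 and 10.38 to 9.76, 9.74 and 9.47, so the groups were apart in both lines and the drop was larger in DHL4. The difference was 0.87 ± 0.16 (limma adjusted p = 0.00312); of its other probe sets 1 was called (1.28) and 1 was not (0.42). MSMO1 differed by 0.65 and lost its call without any 1 of 6 arrays, replicate 3 of DHL4 after R406 among them. ELOVL6, a fatty acid elongase, was the 1 called of 12 fatty acid genes (1.47 ± 0.30, limma adjusted p = 0.00713), at the floor in DHL6, at 5.25 and 3.97 on the DHL4 DMSO arrays, and not called without the first of these. Of 19 endoplasmic reticulum chaperones, HSP90B1 was called (0.68, limma adjusted p = 0.049), a call lost without any 1 of 10 arrays, replicate 3 of DHL4 after R406 among them.

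Of 18 germinal centre genes BACH2, BCL6 and MME were called, all higher. MME, the CD10 antigen, rose in both lines (1.06 in DHL4 and 1.83 in DHL6), and its other probe set gave a difference of 0.04, not called. The called difference of 0.77 was lost without either DHL4 DMSO array. Of 16 plasma cell genes CD27, a TNF receptor of memory and plasma cells, was called: it rose in DHL4 (0.66) and read -0.34 in DHL6 (difference -1.0 ± 0.18, limma adjusted p = 0.00246). HLA-DMB, a peptide loading chaperone of MHC class II, rose in DHL4 (0.71), with a difference of -0.67. TFEB, a regulator of lysosome genes, fell in both lines, by 2.53 in DHL4 and 1.25 in DHL6, with a difference of 1.28 ± 0.25 (limma adjusted p = 0.00563). The other TFEB probe set, at a mean of 4.37, gave 0.51 and was not called (limma adjusted p = 0.583). HLA-DMB lost its call without either DHL4 DMSO array and TFEB without replicate 1 of them. TAP1, TIGAR and E2F3 fell in DHL4, ORC2 rose in DHL6 and CDC25C rose in DHL4, each with a called difference (1.24, 1.34, 0.80, 1.17 and -1.36). Of these, ORC2, a subunit of the origin recognition complex, kept its call without each single array, and the other 4 lost theirs without replicate 1 of DHL4 DMSO, among others. Without replicate 3 of DHL4 after R406, TAP1 (1.10), TIGAR (1.02) and E2F3 (0.60) were not called either, with limma adjusted p of 0.066, 0.136 and 0.0647. The other E2F3 probe set, at a mean of 6.06, gave 0.19 on all arrays and was not called (limma adjusted p = 0.901).

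No member was called in the lists of ribosomal proteins (33 measured), oxidative phosphorylation (26), heat shock and chaperonin (24), glycolysis (21), replication histones (17), NRF2 targets (12) and aryl hydrocarbon receptor targets (9). Heat shock genes fell in both lines, 15 in DHL4 and 11 in DHL6, with a median line difference of 0.03. The lists of T-cell (16), monocyte and macrophage (11) and fibroblast and endothelial markers (14) also had 0 called.

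**Figure D4:**
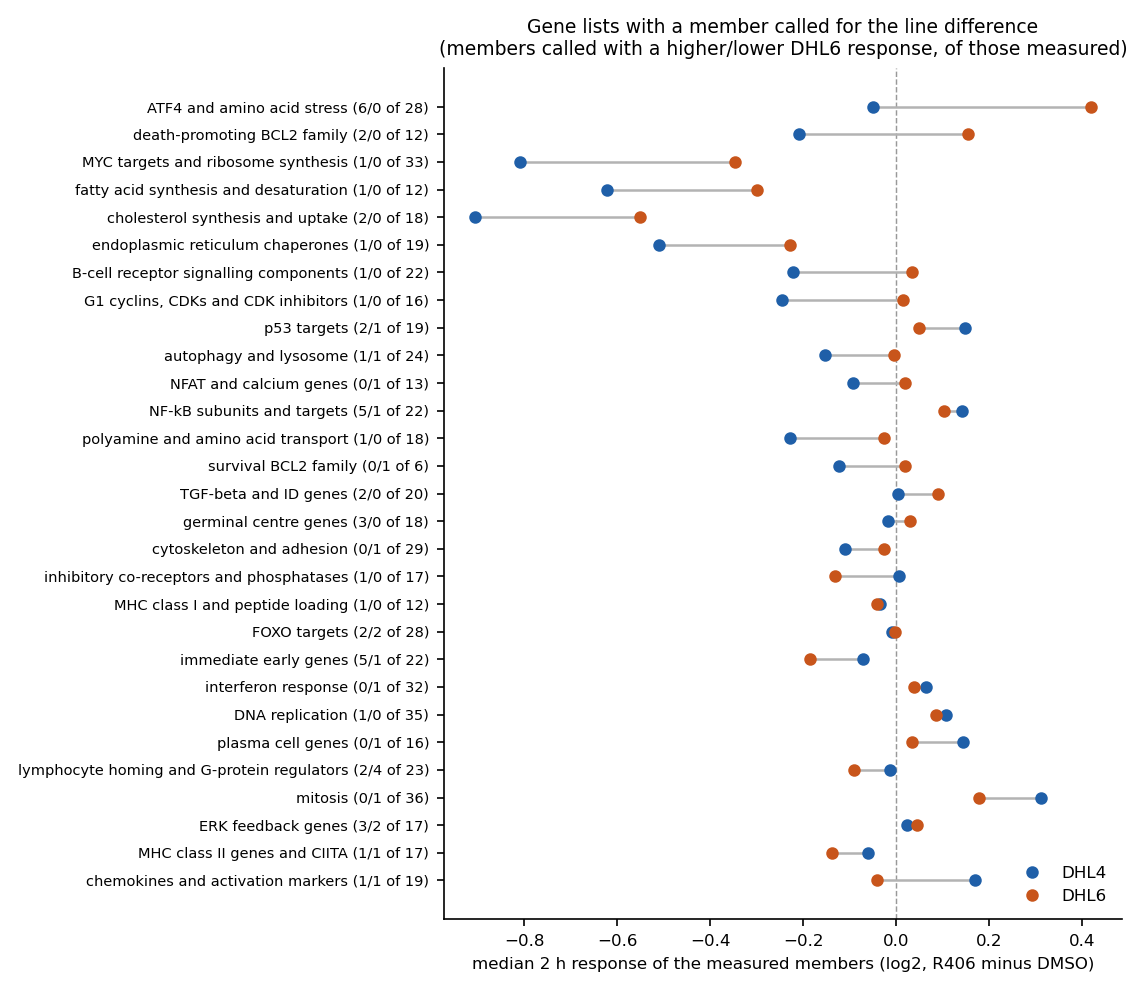
Median 2 h response (log2, R406 minus DMSO) of the measured members of each gene list with at least 1 called member, in DHL4 (blue) and DHL6 (orange), ordered by the median line difference, with counts of members called higher and lower in brackets. The ATF4 list is at the top, with -0.05 in DHL4 and 0.42 in DHL6. The MYC target and cholesterol lists are below 0 in both lines and lower in DHL4.

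Several genes of receptor signalling had no called line difference, which does not show that the lines responded alike. SYK itself read 7.43 and 7.39 in DHL4 DMSO and 7.26, 7.29 and 6.71 after R406. In DHL6 it read 5.40, 5.23 and 4.84 and 5.28, 5.62 and 5.69, so DHL4 was the higher line in both conditions. The line difference of SYK was 0.70 ± 0.26 (limma adjusted p = 0.256). The strong falls of LMO2, a germinal centre cofactor, PTPN6, the phosphatase SHP-1, and CD72, an inhibitory co-receptor, were called in both lines, and their line differences were 0.57 ± 0.26, 0.29 ± 0.33 and 0.31 ± 0.24, with limma adjusted p of 0.438, 0.868 and 0.761. All 3 ended near the floor in both lines, which bounds the difference.

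TXNIP, a brake on glucose uptake, fell in both lines, with a difference of 0.54 ± 0.24, as did HMGCS1 (0.75 ± 0.21, limma adjusted p = 0.0747) and INSIG1 (0.33 ± 0.18), both of the sterol pathway. CDKN1B, the CDK inhibitor p27, rose in DHL4 (1.25 ± 0.29) and read 0.0 in DHL6, but its difference of -1.25 ± 0.39 was not called (limma adjusted p = 0.122). EGR1 (-0.67) and DUSP6 (0.59), both targets of ERK, were not called either, and EGR1 was near the floor in DHL4 and between 5.43 and 6.17 in DHL6. DUSP6, CCND2, KLF2, BCL2L11 and CYP1A1 were below 4 on all 11 arrays, so their changes are understated.

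The line difference at later times uses the same DMSO arrays, so its values are set beside the 2 h value and are not independent of it. It was called for 857 genes (7.04%) at 6 h, 1989 (16.4%) at 24 h and 618 (5.08%) at 48 h. MYC differed by 2.44 at 6 h, 2.34 at 24 h and 0.56 at 48 h, when DHL4 had returned from 8.65 to 10.18. USP2 differed by 3.73, 3.78 and 1.89, called at all 3 later times. CXCR4 differed by -2.09 at 6 h and -3.30 at 24 h and, at -0.27, was not called at 48 h (limma adjusted p = 0.454).

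Other genes changed place. The HRK difference was 0.38 at 6 h (limma adjusted p = 0.674), -1.69 at 24 h (limma adjusted p = 0.000692) and 3.05 at 48 h (limma adjusted p = 3.45e-06). Its mean in DHL4 went from 4.08 at 2 h to 5.53 and 8.37 before 4.04, and in DHL6 from 7.08 to 6.93, 7.70 and 8.11. The CD83 difference was 0.66 at 6 h and turned to -2.19 at 24 h and -2.0 at 48 h, all called. PIM1 was called at 2 and 48 h (1.56) and not at 6 h (0.46) or 24 h (-0.15). TSC22D3 reached -5.92 at 24 h and CTH 2.83 at 6 h. PTCH1 and TNS3 were not called at any later time, with PTCH1 at 0.02, 0.12 and -0.19.

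**Figure D5:**
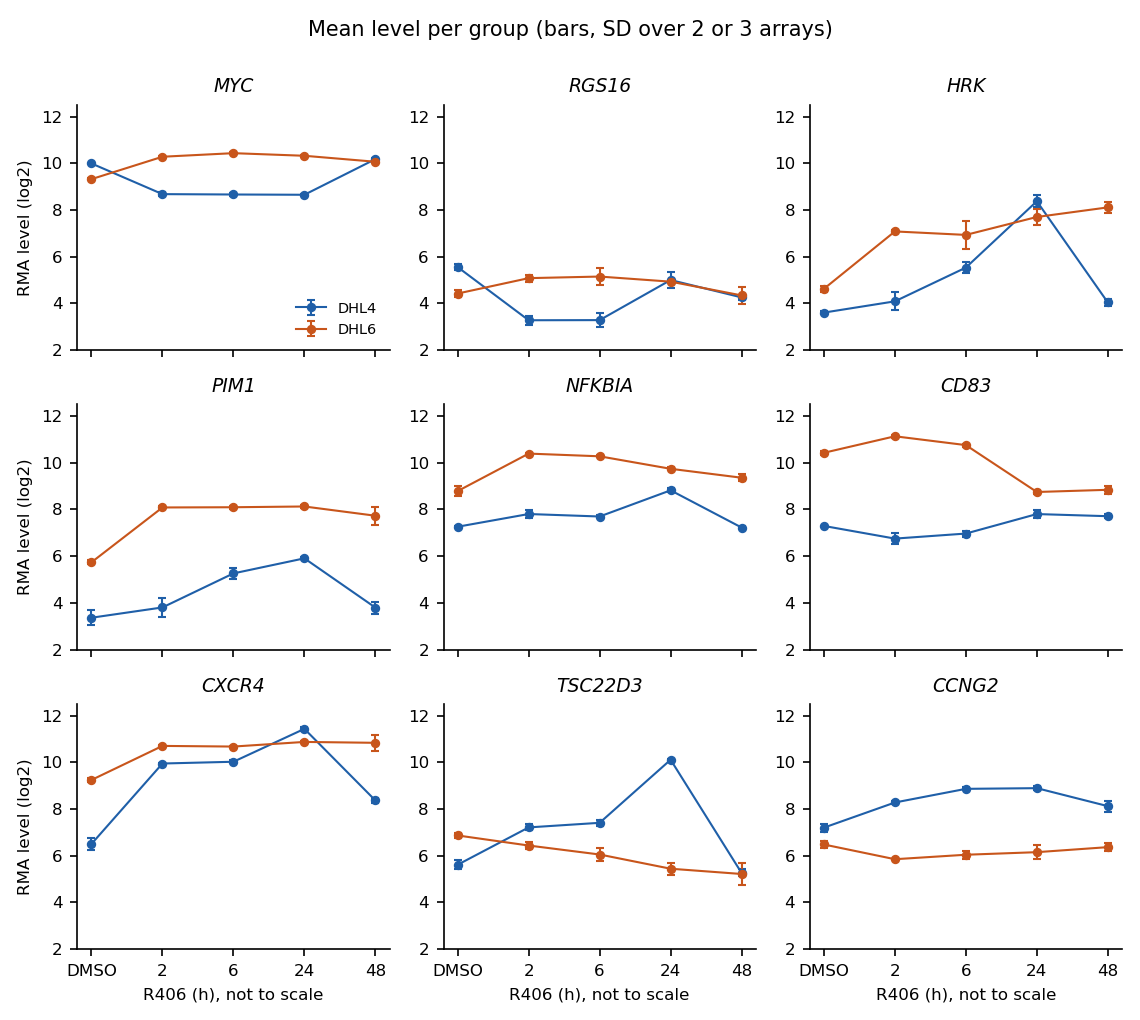
Mean RMA level (log2) in DMSO and after 2, 6, 24 and 48 h of R406 for 9 genes in DHL4 (blue) and DHL6 (orange), with bars for the SD over 3 arrays, or 2 for DHL4 in DMSO. The MYC lines cross between DMSO and 2 h and meet at 48 h, HRK is higher in DHL6 at 2 h and lower there than in DHL4 at 24 h, and CXCR4 rises from a lower start in DHL4.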

How the data were processed

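The deposited values were log2 expression per probe set, made by the authors with RMA, per the submitters' processing notes. That method subtracts background, equalises the distributions of arrays and combines the probes of a set; which arrays went in together is not stated here. Of 22277 probe sets, 19724 had a single symbol (19707 matched by Entrez identifier), 568 had several, 1923 had none, and 62 were controls of the array. The brightest single-symbol probe set on average stood for its gene, which gave 12165 genes.

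The limma package 3.58.1 (R 4.3.3) fitted 1 mean per group, 10 in all, over the 29 arrays, with lmFit, eBayes and 19 residual and 5.05 prior degrees of freedom. Genes were adjusted by Benjamini-Hochberg over all 12165 and called below 0.05. The number of arrays limits the precision. Data were simulated for the 2 h line difference over 12165 genes, with 50 changed genes of each size. Of these, 2% were recovered at a log2 difference of 0.5, 56% at 1, 90% at 1.5 and 98% at 2. Of 131 calls, 8 were false. These rates describe the simulated data. Whether they hold for the real arrays, of which 1 stood apart, was not tested.

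The text names the 12 largest called differences each way, the 6 largest each way among genes at 5 or more in DMSO of both lines, genes called in opposite directions (at most 10), at most 4 called members of each of 42 gene lists (856 entries, 763 measured) and 24 genes always named. RFX5, the last of the 11 opposite genes, was named by its list. The genes and lists were chosen with earlier results of these data known. Promoters are 250 bases before the gene start from RefSeq, found for 9711 of the genes. No pair of arrays held identical values (0 pairs).

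Replicate numbers did not pair the arrays: over 15 pairs of arrays with the same number in different groups, deviations from group means correlated at -0.27 to 0.19. Alternatives were the replicate number as a block, the 11 compared arrays alone, quantile normalization, median centring and filters on dim genes. Others were the mean of a gene's probe sets, all probe sets fitted together, limma-trend with robust eBayes, array weights and leaving out each array. The hybridisation control level as a covariate was added after the arrays' levels were seen.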

Additional observations from a re-analysis of the deposited data

Results flagged for a closer look

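The test of the line difference itself, the DHL6 response minus the DHL4 response, was past the limma threshold for 214 genes. Those named for their size or for opposite responses in the lines are given here by that difference on the log2 scale. The DHL6 response was higher for USP2 (3.84), RGS16 (2.94), BCAR3 (2.64), CKAP4 (2.55), TRAF4 (2.51), THY1 (2.43), PYHIN1 (2.32), IER5 (2.30), MYC (2.27), ZMIZ1 (2.24), TNS3 (2.10), ASB13 (1.98), ID2 (1.74), JADE2 (1.46), MBP (1.45), SOBP (1.31) and CD83 (1.25). It was lower for RGCC (-1.15), CCNG2 (-1.71), SPTBN1 (-1.76), PCDH9 (-1.83), IL16 (-1.94), OAS1 (-1.95), CXCR4 (-1.99), RGS1 (-2.01), EMP3 (-2.03), TSC22D3 (-2.03), GADD45A (-2.03), TMEM156 (-2.12), BHLHE40 (-2.25) and LRRN3 (-3.25). With groups of 2 or 3 arrays, single arrays that lie far from their group were not searched for gene by gene.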

How the results depend on the processing

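None of the 76 named called genes changed sign in any alternative fit, where the chosen probe set was kept or a gene's probe sets were averaged. Of 14 named genes that were not called, PTPN6, KLF2 and CYP1A1 did, and PTPN6 ran from -0.05 to 0.62 when single arrays were left out. Taken singly, the 57 other probe sets of 36 of the 76 genes gave 14 calls of the same sign and 0 of the opposite sign. The remaining 43 were not called, 30 of them at a mean level below 4. Some of the 43 had the opposite sign, such as that of BACH2 (-0.32). Of the 42 list medians 18 changed sign under at least 1 alternative. Leaving out single arrays moved the median from -0.04 to 0.26 for NF-kB subunits and targets, from -0.01 to 0.09 for heat shock genes, from -0.12 to 0.14 for immediate early genes and from -0.07 to 0.07 for FOXO targets. The counts not given below stayed within 1.5 times their value. With array weights 350 genes were called, 228 higher and 122 lower in DHL6, with 21 opposite responses, 39 falls and 41 rises in DHL6 and not in DHL4, and 1155 genes called for the 2 h response in DHL6. Testing only genes at 5 or more in DMSO of both lines left 43 lower differences, 61 of at least 2-fold, 20 opposite, 9 falls in DHL6 alone and 17 rises in DHL4 alone. That filter and the one at 5 in any compared group (17 opposite) test fewer genes. With the hybridisation control level as a covariate, chosen after seeing the data, 108 differences were lower and 35 were falls in DHL6 alone. The cause of these shifts was not tested. With the replicate number as a block 206 genes were called, 144 higher and 62 lower, and the block changed no count by over 1.5 times. A fit of the 11 compared arrays alone, without the later times, called 193 genes, 130 higher and 63 lower. Of the genes called in the main fit, 148 were among them. Of the 76 named called genes, 58 kept their call in that fit and 18 lost it. Leaving out each of the 11 arrays in turn gave 102 to 252 called genes, 69 to 187 higher, 33 to 65 lower and 88 to 168 of at least 2-fold. The same gave 39 to 121 falls and 16 to 40 rises in DHL4 alone, 10 to 23 falls and 17 to 26 rises in DHL6 alone, 5 to 12 opposite, 568 to 1232 genes in the DHL4 response and 454 to 686 in the DHL6 response. The lowest of the first 4 counts came without replicate 1 of DHL4 DMSO, where the lone array left is assumed to vary like the other groups. Of 76 named called genes, 48 to 74 stayed called across these 11 fits. With 2 or 3 arrays a group, differences of under 1 on the log2 scale were mostly beyond reach, and levels near the floor bound what falls could be seen.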
